A study of Gallus gallus with 4 samples.

Results

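The low and the high end of body weight within the slow-growing Xinghua (XH) chicken were compared through the RNA of breast muscle. One end was the pool of high body weight (XHh), whose birds averaged 305.8 ± 23.3 g, and the other was the pool of low body weight (XHl), at 207.6 ± 11.1 g. The labels do not say whether these errors are an SD or an SE. Each pool mixed breast muscle RNA from 3 females aged 7 weeks, reared in cages on the same light and feed, and each pool gave 1 library. The fast-growing Recessive White Rock (WRR) gave pools of the same make, WRRh at 1064.0 ± 11.1 g and WRRl at 695.0 ± 24.4 g, and their values stand beside those of Xinghua for some of the genes. Expression was measured as FPKM, the number of sequenced fragments of a gene scaled to the length of its transcript and to the size of the library. Read counts per gene do not come with the FPKM values, which leaves the precision of each value unknown. The study lists more reads, total and mapped, for XHl than for XHh. With 1 library a side no difference has a replicate check, no p-value is given, and genes are described by the size of a ratio.

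The ratio was that of XHl over XHh on the scale of log2(FPKM + 1), so a positive value means a higher level in the low weight pool, and the ratio understates the difference of genes near 1 FPKM. Of the 17934 gene IDs, 4712 were listed at 0 in both Xinghua pools, 803 in XHh only and 343 in XHl only. XHl was the library with more reads, and the part of depth in these zeros was not tested. A further 2057 were above 0 in both pools with a mean under 1 FPKM. The remaining 10019 genes, above 0 in both pools with a mean of at least 1 FPKM, are the ones compared here, and 1665 of them overlap another gene model, which makes the split of reads between the overlapping genes uncertain.

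Breast muscle of chickens is built almost wholly of fast, glycolytic fibres. Their force comes from myosin thick filaments sliding along actin thin filaments, which carry tropomyosin and the troponins and are anchored at Z-discs, and a collagen and elastin matrix passes the force on to tendon. Muscle mass is set by growth factors such as IGFs, by the inhibitor myostatin and its Smad proteins, and by ubiquitin ligases and autophagy that break fibres down. The libraries carried the genes that define this tissue: MYL1, the fast essential myosin light chain, was at 18823 FPKM in XHh and 16051 FPKM in XHl, and TNNI2, the fast troponin I, was at 10559.5 and 8535 FPKM. The slow fibre genes TNNI1 and MYL2 were far lower, TNNI1 with 1.43 and 0.930 FPKM and MYL2 with 31.8 and 30.7 FPKM. TNNC1, the troponin C of slow fibres, was an exception at 7354 and 4884 FPKM. Parvalbumin (PVALB), a marker of fast fibres in mammals, was at only 0.663 and 5.20 FPKM. GAPDH and PFKM, which every muscle uses, were listed at 0 in both pools and TTN, the gene of the giant protein titin, was at 0.0728 and 0.166 FPKM, so a 0 or a very low value in these tables is not evidence of absence.

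The pools were close to each other over most genes. Within 1.5-fold of each other were 9379 of the 10019 genes (93.6%), against 86.5% of 10700 genes in the White Rock pair chosen by the same rule. At least 2-fold higher in XHl were 78 genes (0.779%), and 54 genes (0.539%) were at least 2-fold lower. At least 1.5-fold higher were 376 genes (3.75%), and 264 genes (2.63%) were at least 1.5-fold lower. The median log2 ratio of all genes was 0.05, with 59.5% of genes above 0. The counts given below for lists of genes are to be read beside these shares. The 5th and 95th percentiles were -0.42 and 0.52 in Xinghua, and -0.48 and 0.86 in White Rock. In the White Rock pair 3.28% of genes were at least 2-fold higher in the low weight pool and 0.748% at least 2-fold lower, and at 1.5-fold the shares were 10.5% and 3.04%.

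**Figure D1:**
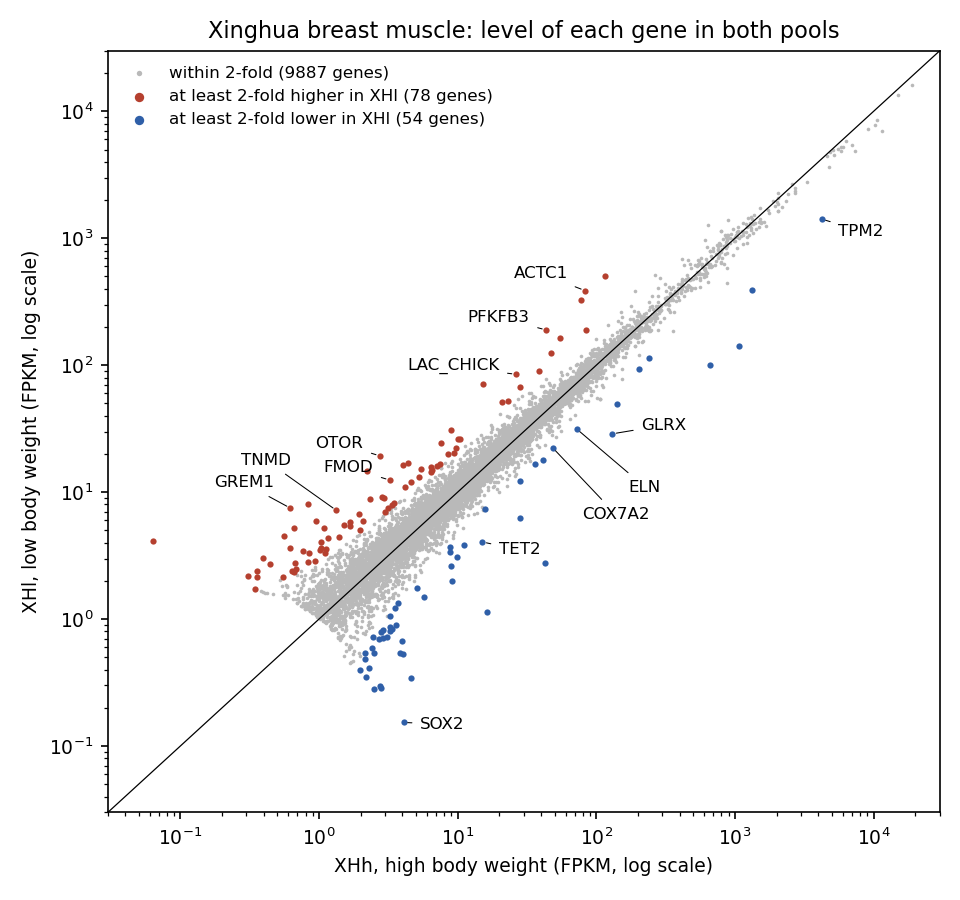
Level of each of the 10019 genes in XHh (x axis, FPKM, log scale) and XHl (y axis, FPKM, log scale), 1 library each, with the line of equal levels. The 78 genes at least 2-fold higher in XHl are in red and the 54 at least 2-fold lower in blue, and 9887 grey genes lie within 2-fold on the log2(FPKM + 1) scale.

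Large ratios were found most often at low levels and in short genes. Among genes with a mean of 1 to 5 FPKM, 68 of 3182 (2.14%) were at least 2-fold apart, against 27 of 3527 (0.766%) at 10 to 50 FPKM and 7 of 369 (1.90%) at 200 FPKM and over. Of the 153 genes whose locus spans under 500 bases, 17 (11.1%) were at least 2-fold apart, against 1.17% of the 9866 longer ones. Of the 78 higher genes, 35 carried a gene name, 40 had a mean of at least 5 FPKM and 16 overlapped another model. Of the 54 lower genes, 20 carried a name, 24 had a mean of at least 5 FPKM and 12 overlapped another model. The status that Cuffdiff gives each gene was other than OK for 33 of the higher and 35 of the lower genes, and for 67 of these genes it was NOTEST, which marks too few fragments.

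**Figure D2:**
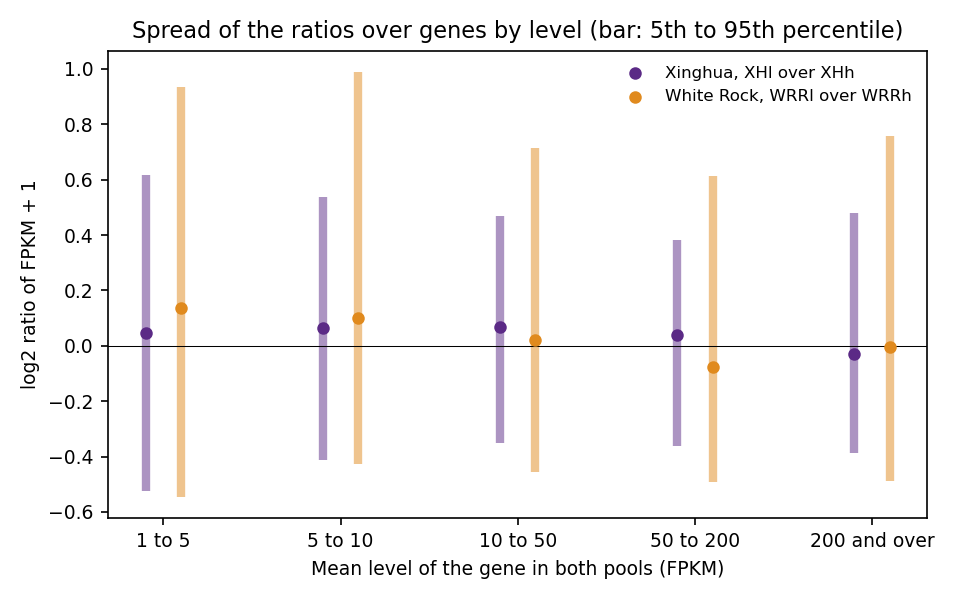
Median (points) and 5th to 95th percentile (bars) of the log2 ratio over genes, by the mean level of the gene in both pools of a breed (x axis, FPKM). In every class the bar of White Rock (WRRl over WRRh) is longer than that of Xinghua (XHl over XHh), and the Xinghua bar spans -0.52 to 0.62 at 1 to 5 FPKM and -0.36 to 0.38 at 50 to 200 FPKM.

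Large differences were seen in the sarcomere itself. ACTC1, the cardiac alpha actin that skeletal muscle also makes in the embryo, was at 82.9 FPKM in XHh and 387 FPKM in XHl (log2 ratio 2.21; chromosome 5:34611954-34616210, as the tables place it, with galGal4 the build in the submitters' notes). White Rock had 267 FPKM in WRRh and 391 FPKM in WRRl, so XHh was the pool that stood low among the 4. TPM2, the beta-tropomyosin that lies along the actin filament, went the other way, with 4223 FPKM in XHh and 1418 FPKM in XHl (log2 ratio -1.57; chromosome Z:8546930-8553188). Here XHh was the pool that stood high, since the White Rock pools had 1306 and 1030 FPKM. Actin genes are near-identical in sequence, and the split of reads between them is uncertain.

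The other thin filament genes were slightly lower in XHl. Of 14 genes on this list that were compared, 4 had a ratio above 0, the median was -0.26, 1 gene was at least 2-fold higher (ACTC1) and 1 at least 2-fold lower (TPM2). TNNC1, the slow-type troponin C, was at 7354 and 4884 FPKM (log2 ratio -0.59), against 8217 and 8100 FPKM in White Rock. The fast troponins TNNI2 (-0.31) and TNNT3 (-0.33) were lower with the deposited scaling and higher, at 0.64 and 0.36, after quantile normalization. Median-of-ratios factors, 0.98 for XHh and 1.02 for XHl, left both lower. Quantile normalization ranked missing XHl estimates as 0. ENSGALG00000014442 and ENSGALG00000011086 are such genes, with 25569 and 20910 FPKM in XHh, so this normalization cannot settle the direction of the most abundant genes. The thick filament and M-band list had a median of -0.11 over 14 genes, with 4 above 0. MYL3, the slow essential light chain, was at 2.14 and 0.485 FPKM (-1.08), with the status NOTEST. MYL1 had a ratio of -0.23 that turned to 0.61 after quantile normalization. The limit given for the fast troponins holds for MYL1 too. MYH1, a fast myosin heavy chain of a cluster of near-identical genes on chromosome 18, lay just outside 2-fold with 642 and 1272 FPKM (0.99). The White Rock pools had 430.1 and 897 FPKM of MYH1. Its Cuffdiff status was other than OK, so its level is uncertain. The slow fibre markers had a median of -0.33 over 7 genes, 1 of them above 0, and their summed level was 7405 FPKM in XHh and 4930 FPKM in XHl, nearly all of it TNNC1.

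At the Z-disc and the costamere, where filaments are anchored to the membrane, most genes were level, with a median of -0.07 over 26 genes. SNTB1, a syntrophin of the dystrophin complex, was the only member at least 2-fold apart, with 9.34 FPKM in XHh and 20.5 FPKM in XHl (1.06). The White Rock pools showed much the same levels, 9.23 and 18.4 FPKM. ANKRD1, an ankyrin repeat protein of the titin spring that is induced by mechanical load, was at 192 and 383 FPKM (1.00 after rounding, just under 2-fold), against 411 and 496 FPKM in White Rock. ABRA, an actin-binding protein of striated muscle, was at 84.3 and 189 FPKM (1.16; chromosome 2:136766999-136776292), and in White Rock it was higher in the high weight pool, at 127 against 88.5 FPKM. Neither ABRA nor the next genes are members of the list. MLF1 was lower in XHl, at 356 and 187 FPKM (-0.92), and so was PPP1R27, a regulatory subunit of protein phosphatase 1, at 879.7 and 446 FPKM (-0.98), while White Rock had 249 and 428 FPKM of it.

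**Figure D3:**
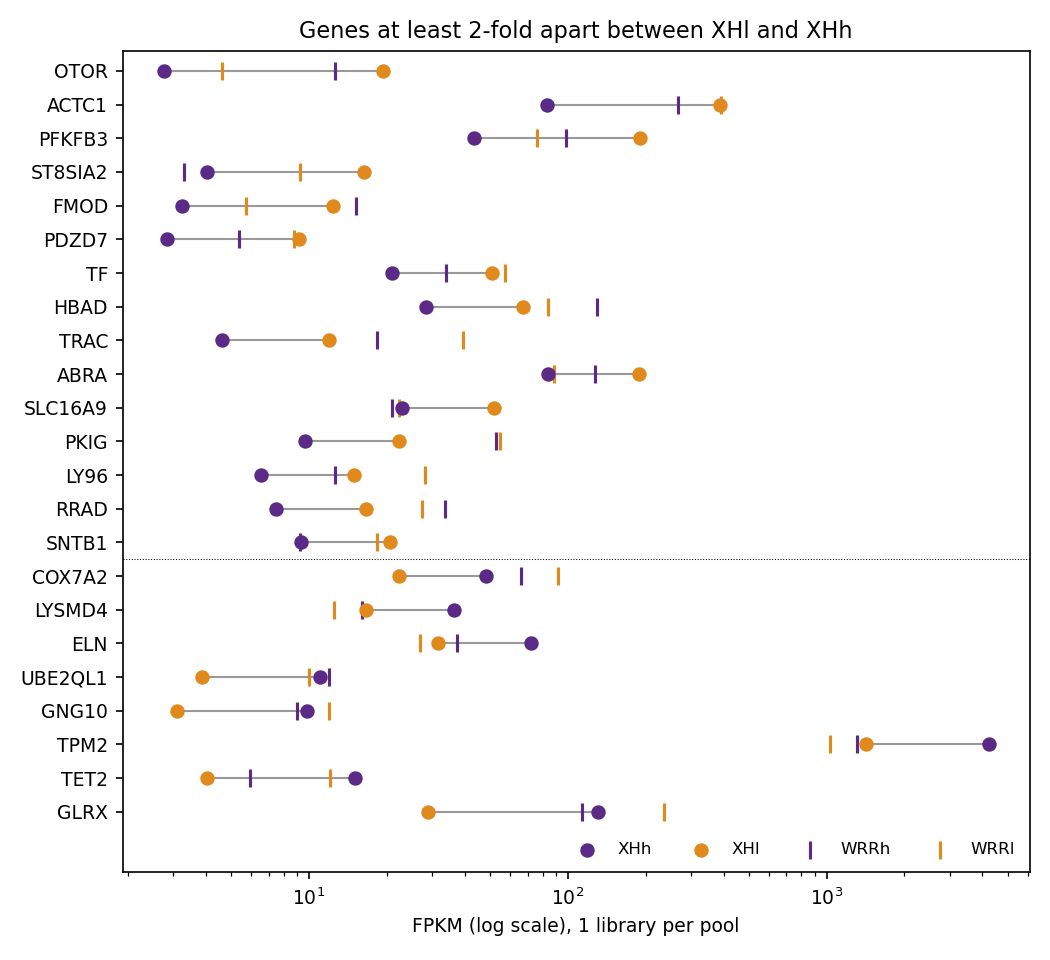
FPKM (log scale) of the 23 named genes at least 2-fold apart between XHh (purple points) and XHl (orange points) that have a mean of at least 5 FPKM and overlap no other gene model, 15 higher (above the dotted line) and 8 lower in XHl. Ticks give WRRh (purple) and WRRl (orange), each 1 library, and for ACTC1 both ticks lie near the XHl point while for TPM2 both lie at or below it.

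Most genes of the matrix between fibres were lower in the low weight pool. ELN, the precursor of elastin, had the lowest ratio among them, with 72.3 FPKM in XHh and 31.4 FPKM in XHl (-1.18; chromosome 19:728580-748054), and the White Rock pools had 37.4 and 26.9 FPKM. Of 13 collagen genes compared, 2 had a ratio above 0 and the median was -0.40, against 0.05 over all genes. COL1A1, the main chain of fibrous collagen, was at 635 and 455 FPKM (-0.48), and COL6A3, which surrounds the fibre with beaded filaments, was at 32.0 and 19.7 FPKM (-0.67). COL1A2, which pairs with COL1A1 in type I collagen, was level at 212 and 215 FPKM, and COL12A1 was higher in XHl, at 0.931 and 2.55 FPKM (0.88). At least 1.5-fold apart were 1 collagen gene in each direction, so the list differed by a small shift of most members.

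The elastic fibre and glycoprotein list had a median of -0.16, with 7 of 26 genes above 0. FBN1, the fibrillin on which elastin is laid down, was at 33.6 and 22.1 FPKM (-0.59), and fibronectin (FN1) was at 26.9 and 20.5 FPKM (-0.38). SPARC, a collagen chaperone of the matrix, was at 620 and 543 FPKM (-0.19). THBS1 and COMP, both thrombospondins, went the other way: THBS1 was at 5.90 and 11.0 FPKM (0.79), and COMP was at 40.0 and 69.2 FPKM (0.78). The matrix proteases and their inhibitors had a median of -0.16 with 5 of 15 genes above 0. MMP2, a gelatinase, was at 78.1 and 64.4 FPKM (-0.27). ADAMTS2, which trims procollagen, was at 7.77 and 4.40 FPKM (-0.70). White Rock did not show lower matrix genes in its low weight pool: the medians there were 0.08 for collagens, 0.16 for the elastic fibre list and 0.07 for the proteases, and these differences between breeds were not tested.

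Among tendon genes, TNMD and FMOD were at least 2-fold higher in XHl. TNMD, tenomodulin, a membrane protein of tendon cells, was at 1.34 FPKM in XHh and 7.18 FPKM in XHl (1.81; chromosome 4:5206031-5213847). FMOD, fibromodulin, a small proteoglycan that binds collagen fibrils in tendon, was at 3.25 and 12.4 FPKM (1.66; chromosome 26:4947322-4950439). In White Rock both were higher in the high weight pool, TNMD at 8.35 against 3.47 FPKM and FMOD at 15.2 against 5.70 FPKM. The wider list of small proteoglycans and tendon proteins had a median of -0.08 with 4 of 12 genes above 0, and the proteoglycans LUM and DCN in it had ratios of -0.32 and -0.22. Of the 10 tendon markers 8 were matched and 7 compared, 6 of these were above 0, KERA was listed at 0 in both pools, and SCX and MKX were not matched. The summed level of the matched markers was 87.7 FPKM in XHh, 123 FPKM in XHl, 210.1 FPKM in WRRh and 266 FPKM in WRRl. Thus the sum rose from the high to the low weight pool in both breeds. COMP made up a large part of it, with 40.0, 69.2, 131 and 202 FPKM in these pools. Its ratios were 0.78, the Xinghua median of the markers, and 0.62 in White Rock. The White Rock median, -0.30, was the ratio of THBS4, at only 1.66 and 1.16 FPKM. OTOR, otoraplin, a secreted protein known from the inner ear and cartilage, had the largest ratio of all genes compared, with 2.75 and 19.3 FPKM (2.43; chromosome 3:5584686-5589682), and 12.6 and 4.61 FPKM in White Rock. The defining cartilage genes COL2A1 and MATN1 were listed at 0 in both Xinghua pools and ACAN was at 0.0572 FPKM in XHl only. In bulk tissue fewer cells of a type and less RNA per cell cannot be told apart, and the part of tendon in these differences was not tested.

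Some inhibitors of the BMP and activin pathway were higher in the low weight pool. GREM1, gremlin, which binds BMPs outside the cell, was at 0.623 FPKM in XHh and 7.48 FPKM in XHl (2.38; chromosome 5:32885074-32892511), and the White Rock pools had 4.72 and 2.55 FPKM. SMAD7 and SMAD6, the inhibitory Smads that the pathway switches on against itself, were higher in XHl, the first with 1.51 and 5.50 FPKM (1.37) and the second with 3.54 and 7.50 FPKM (0.91). In White Rock SMAD7 was level at 6.37 and 6.73 FPKM, so XHh was again the low pool. The status of SMAD7 was NOTEST, and its ratio fell to 0.69 with a pseudocount of 5 FPKM. ID1 and ID2, helix-loop-helix genes that BMP signalling is known to induce, shared this, with ID1 at 33.9 and 59.9 FPKM (0.81) and ID2 at 26.0 and 39.0 FPKM (0.57). ID4, of the same family, was listed at 0 in XHh and at 11.1 FPKM in XHl, with 21.6 and 11.9 FPKM in the White Rock pools. MSTN, myostatin itself, was at 43.0 and 62.4 FPKM (0.53), and its antagonist follistatin (FST) was level at 7.50 and 6.95 FPKM. Over the 19 genes of this list that were compared the median was 0.21, with 13 above 0. Of the 19, 4 were at least 1.5-fold higher and none at least 1.5-fold lower. Over all genes the median was 0.05, 59.5% were above 0, 3.75% at least 1.5-fold higher and 2.63% at least 1.5-fold lower. The White Rock median of the list was -0.04.

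Immediate early genes, which respond within minutes to load, serum or stress, were mostly higher in XHl among those compared. Of the 31 genes on their list, which also holds targets of the YAP regulator, 15 were matched and 14 compared. Of these 14 genes 12 were above 0, and the median was 0.36, beside 59.5% and 0.05 over all genes. BTG2, an antiproliferative gene, was at 177 and 293 FPKM (0.72), and KLF4, a zinc finger regulator, was at 17.7 and 31.6 FPKM (0.81). EGR1, a classical member, was not higher, at 44.3 and 39.1 FPKM (-0.18). The YAP targets were mixed: CTGF, CYR61 and AMOTL2 had ratios of 0.23, -0.18 and 0.06, and ANKRD1 had 1.00 after rounding. The White Rock pair had a median of -0.25 with 4 of 14 above 0. KLF4 there was at 70.9 and 34.7 FPKM.

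**Figure D4:**
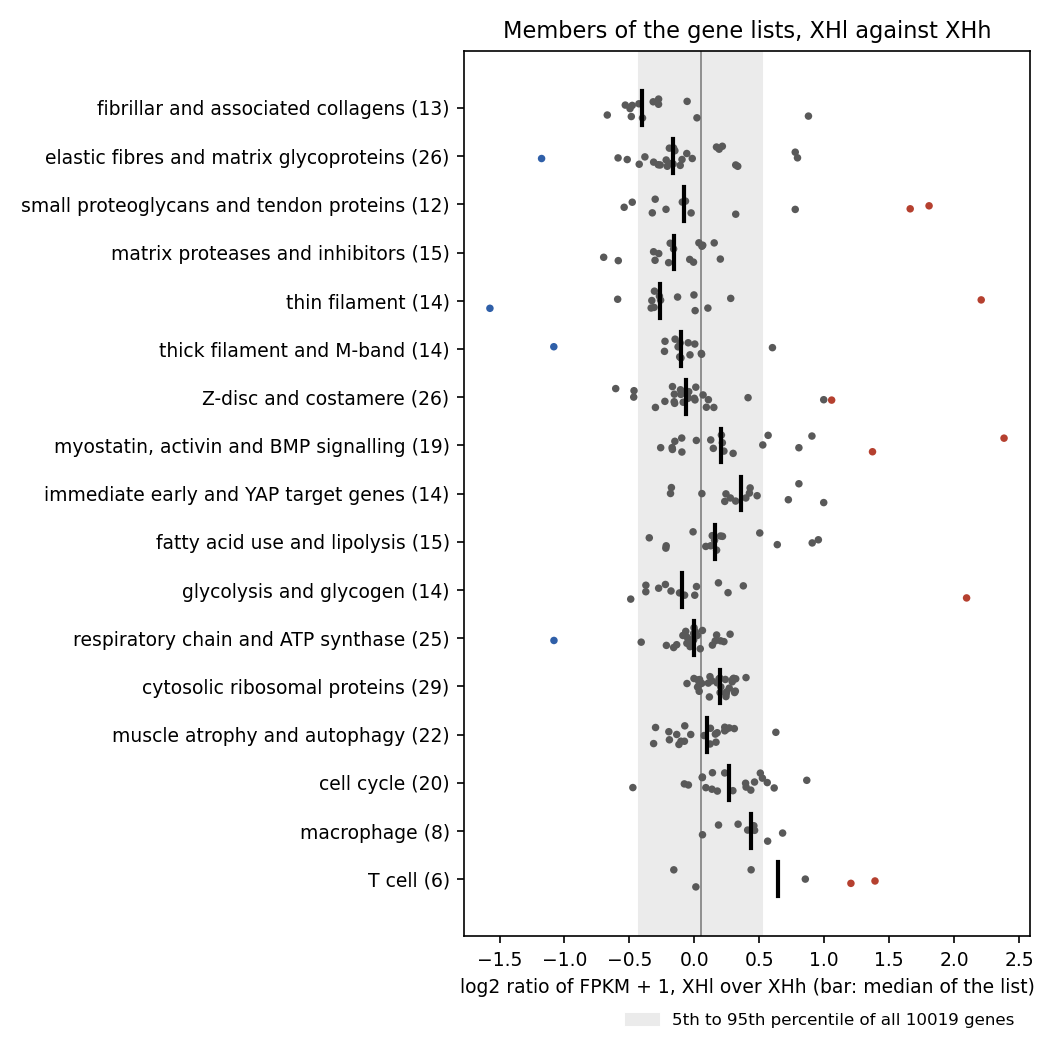
Log2 ratio of FPKM + 1, XHl over XHh, for each compared member of 17 gene lists (points, number of members in brackets), with the median of each list as a bar. Red and blue points are at least 2-fold higher and lower. The grey band is the 5th to 95th percentile of all 10019 genes (-0.42 to 0.52) and the grey line their median (0.05). Collagens lie mostly left of the line, while the immediate early genes and macrophage markers lie mostly right of it.

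A few genes that regulate fuel use had large ratios. PFKFB3, which makes the activator of phosphofructokinase, was at 43.5 FPKM in XHh and 189 FPKM in XHl (2.10; chromosome 1:3379336-3407613), and at 98.8 and 76.3 FPKM in White Rock. The glycolysis and glycogen list around it had a median of -0.09 over the 14 of its 40 genes that were compared. This median became 0.03 after quantile normalization. PGAM1 and TPI1, enzymes of the pathway proper, were among the most abundant transcripts, PGAM1 with 7044 and 5437 FPKM and TPI1 with 4752 and 3669 FPKM. Their ratio was -0.37 for each and turned to 0.27 and 0.24 after quantile normalization. That normalization ranked missing XHl estimates as 0, so it cannot settle the direction of such abundant genes. PDK4, the kinase that holds back the oxidation of pyruvate in mitochondria when fat is burnt, was at 265 and 514 FPKM (0.96). Its levels in White Rock were lower, at 19.0 and 87.1 FPKM. ACACB, whose product malonyl-CoA blocks fatty acid entry into mitochondria, was at 14.7 and 28.5 FPKM (0.91), and PNPLA2, the lipase that starts fat breakdown, was at 92.7 and 132 FPKM (0.50). Other regulators were closer to level, among them PFKFB4 (0.26), PDK1 (0.22) and PPARGC1A (-0.35). The fatty acid list had a median of 0.16, with 3 of 15 genes at least 1.5-fold higher and none at least 1.5-fold lower. Over all genes the median was 0.05 and these shares were 3.75% and 2.63%.

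The respiratory chain and ATP synthase list had a median of -0.01 over the 25 of its 51 genes that were compared, and 24 of the 25 were within 1.5-fold. The exception was COX7A2, a subunit of cytochrome c oxidase, at 48.5 and 22.4 FPKM (-1.08), which White Rock had at 65.9 and 91.5 FPKM. The 16 genes of the mitochondrial genome that were compared were slightly lower in XHl, with a median of -0.14 and 2 of them above 0, beside 0.05 and 59.5% over all genes. SLC16A9, a monocarboxylate transporter, was at 22.9 and 51.9 FPKM (1.14), while the White Rock pools were level at 20.9 and 22.3 FPKM.

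GLRX, glutaredoxin, which removes glutathione from oxidised proteins, was the abundant named gene with the lowest ratio, with 130.4 FPKM in XHh and 28.8 FPKM in XHl (-2.14; chromosome Z:56240542-56243412). White Rock had the reverse order, 114 FPKM in WRRh and 236 FPKM in WRRl. The other redox and glutathione genes did not share this: over 24 genes the median was -0.01, 1 gene was at least 1.5-fold higher and GLRX alone was at least 1.5-fold lower. TET2, an enzyme that oxidises methylated cytosine in DNA, was at 15.1 and 4.05 FPKM (-1.67; chromosome 4:40198184-40216604), with 5.92 and 12.1 FPKM in White Rock. It was the only one of 17 compared chromatin and RNA methylation enzymes at least 1.5-fold apart. SOX2, a transcription factor of stem cells and glia, was at 4.08 and 0.153 FPKM and was listed at 0 in both White Rock pools, so no ratio in White Rock is given. UBE2QL1, of the ubiquitin conjugating family, was at 11.1 and 3.85 FPKM (-1.31), and GNG10, a G protein gamma subunit, was at 9.87 and 3.10 FPKM (-1.41). SOX2 and GNG10 had the status NOTEST. The lowest ratio of all belonged to an ID without a name, ENSGALG00000023132, with 42.8 and 2.79 FPKM (-3.53).

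Genes of growth control and protein breakdown showed few differences. None of 25 compared genes of insulin, IGF and growth hormone signalling was 1.5-fold apart, and their median was 0.10. IGF2 was at 15.6 and 11.6 FPKM (-0.39), and the signalling adaptor IRS2 was at 6.94 and 9.63 FPKM (0.42). IGF1 was at 0.169 and 0.476 FPKM, below the minimum level for a comparison. The atrophy and autophagy list had a median of 0.10 over 22 genes, and its muscle-specific ligases TRIM63 and FBXO32 were level, TRIM63 with 1210.2 and 1127 FPKM and FBXO32 with 209 and 236 FPKM. Both were listed at lower levels in White Rock, with 374 and 373 FPKM of TRIM63 and 23.9 and 21.5 FPKM of FBXO32. FOXO3, a transcription factor that drives these ligases, was level at 92.7 and 90.9 FPKM, while White Rock had 14.1 FPKM in WRRh and 30.8 FPKM in WRRl. ASB2, a ligase subunit of muscle, was the only member at least 1.5-fold apart, at 154 and 239 FPKM (0.63). The 37 compared ligases of the F-box, Kelch, ASB and TRIM families had a median of 0.00. At least 1.5-fold higher were ASB2 and, of the HECT family but listed among them, NEDD4 at 6.25 and 12.4 FPKM (0.89). Both ASB2 and NEDD4 overlap other gene models, so their split of reads is uncertain. ASB12 was at least 1.5-fold lower, at 34.3 and 20.0 FPKM (-0.75).

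Among regulators of muscle formation the median was -0.01 over 21 genes. MYOD1, the regulator that commits cells to muscle, was level at 278 and 314 FPKM, against 119 and 113 FPKM in White Rock. ST8SIA2, which builds polysialic acid on the adhesion molecule NCAM, was at 4.03 and 16.3 FPKM (1.78; chromosome 10:16196081-16220722), and was also higher in the low weight pool of White Rock, at 3.30 and 9.25 FPKM. EYA1, a transcriptional coactivator of early muscle development, was at 2.51 and 5.65 FPKM (0.92), and MUSK, the kinase of the nerve-muscle junction, was at 1.82 and 3.42 FPKM (0.65). TBX15, a regulator of glycolytic fibres in mice, was at 42.7 and 23.6 FPKM (-0.83).

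Those cytosolic ribosomal protein genes that were compared were slightly higher as a group. Of 68 genes on the list 29 were matched and compared, and 27 of these were above 0. The median was 0.20, and none was 1.5-fold apart. Over all genes 59.5% were above 0 and the median was 0.05. Their summed level was 26974 FPKM in XHh and 29802 FPKM in XHl. The White Rock pair shared this, with a median of 0.13 and 28 of 29 above 0. Translation factors had a median of 0.05 over 24 genes, and the list of genes used by most cells had 0.08 over 20 genes. Of 45 cell cycle genes 20 were matched and compared, with a median of 0.27 and 17 above 0 at low levels. Among the 17 were CDK1, the kinase that starts mitosis, at 6.54 and 10.6 FPKM (0.61) and TK1, thymidine kinase, at 1.37 and 3.31 FPKM (0.87).

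Many markers of immune cells were higher in the low weight pool. The 3 compared B cell and plasma cell markers were led by LAC_CHICK, the constant region of the immunoglobulin lambda chain, at 26.3 and 84.8 FPKM (1.65), and by IGJ, the joining chain of polymeric antibodies, at 7.61 and 24.4 FPKM (1.56). Both overlap other gene models, and 3 lambda chain models share a locus, so the split of reads among them is uncertain. The T cell receptor chains TRAC and TRBC2 were higher too, TRAC with 4.63 and 12.0 FPKM (1.21) and TRBC2 with 1.95 and 6.73 FPKM (1.39). All 8 compared macrophage markers were above 0, with a median of 0.43, among them the complement gene C1QB at 6.23 and 10.6 FPKM (0.68). None of the 8 reached 2-fold, and 1 reached 1.5-fold, beside 0.779% and 3.75% of all genes that were higher by as much. HBAD, an alpha-type globin chain of red cells, was at 28.2 and 67.2 FPKM (1.22), while TAL1, the only other red cell marker compared, was level at 18.9 and 18.6 FPKM.

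The summed levels of these markers rank the pools. The matched macrophage markers summed to 115 FPKM in XHh and 160.3 FPKM in XHl, the T cell markers to 22.6 and 42.8 FPKM, and the B cell and plasma cell markers to 36.0 and 111 FPKM. Both White Rock pools lay above both Xinghua pools in each of these sums, at 267 and 654 FPKM for macrophages and 98.4 and 194 FPKM for T cells. IL7R was listed at 0 in XHl and TNFRSF13B in both Xinghua pools, and LCK, PAX5, BTK, CSF1R and CD68 were among those not matched. The lysosome list, whose members are abundant in macrophages, had a median of 0.18 with 22 of 28 genes above 0. Over all genes the median was 0.05 and 59.5% were above 0. CTSS of the lysosome list is also a macrophage marker. The part of blood and immune cells in these differences, and in those of the cell cycle list, was not tested.

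Of 5 compared plasma carriers and apolipoproteins, 3 were above 0, with a median of 0.41, beside 59.5% and 0.05 over all genes. TF, transferrin, which carries iron, was at 20.9 and 50.9 FPKM (1.24), and APOA1, the main protein of high density lipoprotein, which many chicken tissues make, was at 607 and 963 FPKM (0.67). APOA1 overlaps another gene model and its Cuffdiff status was other than OK, so its level is uncertain. CP and CETP, which carry copper and lipids in plasma, were not higher in XHl, with ratios of -0.01 and -0.28. TTR, the thyroxine carrier transthyretin, was listed at 0 in XHh and at 255 FPKM in XHl, and at 16.9 FPKM in WRRh and 139 FPKM in WRRl. Of the genes that define liver, ALB was at 0.274 and 0.125 FPKM, and FGA and FGG were listed at 0 in both Xinghua pools, and the part of liver RNA was not tested. Skin markers were near 0, with 4 matched genes that summed to 0.630 FPKM in XHh and 0.504 FPKM in XHl. Smooth muscle and pericyte markers were lower in XHl, with 0 of 5 above 0 and a median of -0.34, led by MYH11 at 32.0 and 18.5 FPKM (-0.76). They include DES, also on the Z-disc list, at 993 and 959 FPKM (-0.05). White Rock shared the direction, with a median of -0.75 and 1 of 5 above 0. The vessel lining markers were level at a median of -0.05 over 6 genes.

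Of the 78 genes at least 2-fold higher in XHl, 71 could be compared in White Rock, 46 of these were on the same side of 0 there and 17 were at least 2-fold higher. Over all 10700 genes compared in White Rock, 56.6% were above 0, 3.28% at least 2-fold higher and 0.748% at least 2-fold lower. Named genes among the 17 were TRAC, TRBC2, SH2D1A, LAC_CHICK, IGJ, CCL4 and LY96, all of immune cells. ST8SIA2 and MDK, a heparin-binding growth factor, were the others with a name. LAC_CHICK shares 1 locus with ENSGALG00000005937 and ENSGALG00000005946 among the 17, so they are not separate. SH2D1A, CCL4 and MDK had the status NOTEST, and that of IGJ was also other than OK. In 6 of the 71 the order was reversed at 2-fold, that is, they were at least 2-fold lower in the low weight pool of White Rock: FMOD, TNMD, OTOR, PVALB, SRRD and ENSGALG00000021339. Of the 54 lower genes 43 could be compared, 17 were on the same side of 0, that is, below it, where 56.6% of all White Rock genes were above it, and 3 were at least 2-fold lower, of which IL9R carries a name. GLRX was among 6 of the 43 genes with the opposite order at 2-fold, that is, at least 2-fold higher in WRRl. The shares of all White Rock genes were 0.748% at least 2-fold lower and 3.28% at least 2-fold higher. The difference between the breeds was not tested for any gene.

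**Figure D5:**
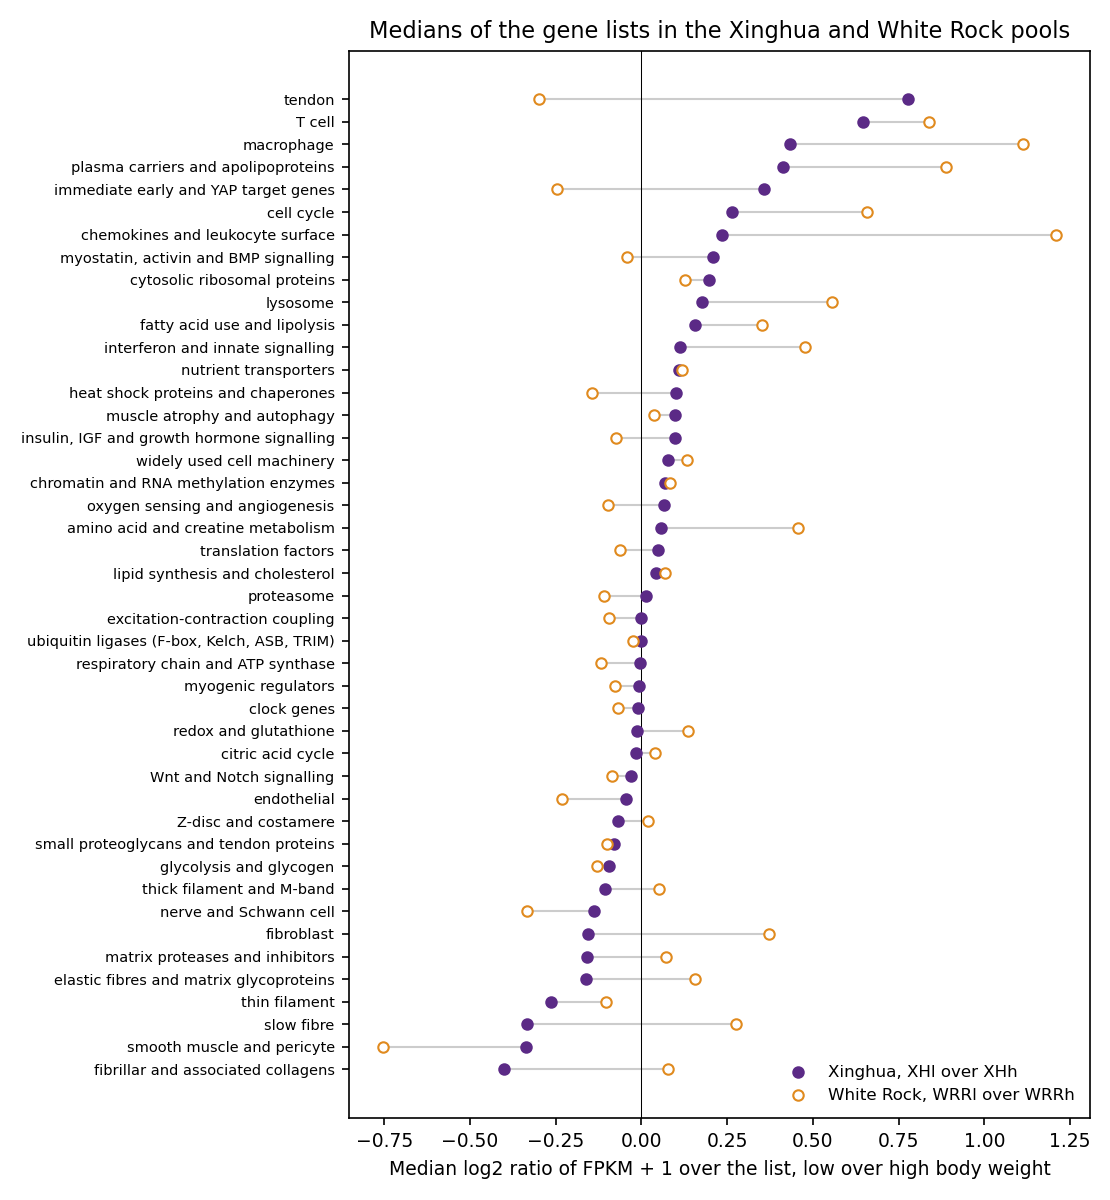
Median log2 ratio of FPKM + 1, low over high body weight, of the 44 lists with at least 5 compared members, in Xinghua (filled) and White Rock (open), 1 library per pool. Tendon markers (0.78 and -0.30), immediate early genes (0.36 and -0.25), slow fibre markers (-0.33 and 0.28) and collagens (-0.40 and 0.08) fall on opposite sides of 0 in the breeds, and macrophage markers (0.43 and 1.11) and T cell markers (0.65 and 0.84) on the same side. For tendon markers the opposition holds for the medians but not for the summed levels, which are larger in XHl than XHh and in WRRl than WRRh. The members compared can differ between breeds: slow fibre markers numbered 7 in Xinghua and 5 in White Rock, and T cell markers 6 and 9.

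Genes listed at 0 in 1 pool got no ratio. At 0 in XHh and at 5 FPKM or more in XHl were 55 genes, of which 28 carry names of short RNAs such as snoRNAs, 5S rRNA and microRNAs. Another 13 carry other names, among them TTR and ID4 above, NUP107, a nuclear pore protein, at 9.11 FPKM in XHl, and TLN1, talin, at 8.71 FPKM in XHl. TLN1 and EIF3J, a translation initiation factor at 250.3 FPKM in XHl, belong to 5 of these genes for which Cuffdiff gave the status FAIL. At 0 in XHl and at 5 FPKM or more in XHh were 34 genes, among them ABCG2, a membrane transporter, at 16.9 FPKM in XHh, and FOXP2, a forkhead regulator, at 16.2 FPKM in XHh. For 5 of the 34 Cuffdiff gave the status HIDATA, that is too many fragments to estimate. They include ENSGALG00000014442 and ENSGALG00000011086, at 25569 and 20910 FPKM in XHh, so their 0 in XHl marks a missing estimate. The FPKM of a library in its other table was identical wherever both values were above 0. Zeros were not always shared: 11 XHh and 18 XHl values above 0 here were at 0 in the other table. The reverse held for 25 XHl values. The 55 and 34 genes above were at 0 in both tables of the library concerned.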

How the data were processed

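RNA of 4 pools of chicken breast muscle was sequenced, and the 2 Xinghua pools (XHh and XHl, 1 library of 3 birds each) were compared here. The authors aligned reads with TopHat (version not given in the sources used here), and made the FPKM value of every gene in the deposited tables with Cuffdiff, which writes 1 table per pair of libraries. The submitters' notes name galGal4. Whether the positions in the tables follow that build is not known, and their starts, which count from 0, were moved by 1. The fold change, p-value, q-value and significance columns hold the authors' own comparisons and were not used. Columns of other samples left unused numbered 0.

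Ratios were log2(FPKM + 1) of XHl over XHh from the table holding both. Genes above 0 in both pools with a mean of at least 1 FPKM were compared. Read counts per gene were not available, so the precision of each value is unknown, and the study lists more reads for XHl than for XHh. Genes were named by the table's symbol (9348 IDs), by the protein entry name in the table (449) or by the study's tables (31), with RefSeq synonyms for list members, and 8106 IDs have no name. The members and the 37 function and 18 marker lists (1396 gene names, 762 matched, 648 compared) were chosen with earlier results of these data known. The rule for named genes took the 25 with the largest ratio per direction, the 15 largest with a mean of at least 50 FPKM, genes at 0 in 1 pool and at 5 FPKM or more in the other, list members and genes the study names, and the text prints a part of them. SLC16A9 and LY96 in the text, PKIG and RRAD in a plot and the IDs without a name were chosen after their values were seen.

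Alternatives changed the pseudocount, the minimum mean, the treatment of zeros, the scaling and overlapping gene models. Scripts used matplotlib 3.10.9, scipy 1.17.1, numpy 2.4.6 and pandas 2.3.3 under Python 3.11.15, and were tested on simulated data.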

Additional observations from a re-analysis of the deposited data

Results flagged for a closer look

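In all 12 genes were at least 2-fold apart in both breeds in opposite directions, and the value given for each is the log2 ratio of XHl over XHh minus that of WRRl over WRRh. The difference was not tested, since each ratio rests on 1 library a side.

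Higher in XHl and lower in WRRl were SRRD (6.60), OTOR (3.72), PVALB (3.64), FMOD (2.94), TNMD (2.87) and ENSGALG00000021339 (2.35). SRRD and ENSGALG00000021339 overlap other gene models, and SRRD was at 15.2 FPKM in XHh, 71.0 FPKM in XHl, 404 FPKM in WRRh and 17.5 FPKM in WRRl. PVALB was at 0.663 FPKM in XHh, 5.20 FPKM in XHl, 15.3 FPKM in WRRh and 3.87 FPKM in WRRl.

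Lower in XHl and higher in WRRl were ENSGALG00000016194 (-3.60), ENSGALG00000020044 (-3.29), GLRX (-3.19), SCARNA6 (-2.98), ENSGALG00000019175 (-2.87) and ENSGALG00000021150 (-2.11). GLRX was the abundant gene among them. ENSGALG00000016194 and ENSGALG00000019175 lie next to each other on chromosome 1, at positions 113108571 to 113112650 and 113102780 to 113107070, and both were lower in XHl, the first with 4.63 FPKM in XHh and 0.343 FPKM in XHl and the second with 3.25 and 0.813 FPKM. SCARNA6 and ENSGALG00000021150 overlap other gene models. SCARNA6 is a short RNA and ENSGALG00000020044 spans a short locus of chromosome 3, at 31535151 to 31535303.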

How the results depend on the processing

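No paired analysis was possible because each pool is 1 library and no test was run. The counts of genes at least 2-fold higher and lower in XHl were 78 and 54. They were 171 and 121 with a pseudocount of 0.1 FPKM, 24 and 14 with a pseudocount of 5 FPKM, 40 and 24 with a minimum mean of 5 FPKM, and 155 and 100 with genes at 0 in 1 pool kept. With only genes of status OK, an alternative chosen after seeing the data, they were 45 and 19. Median-of-ratios factors gave 68 and 66 and quantile normalization 65 and 64, both with a median of all genes near 0 (0.00), so the excess of higher genes depends on the scaling. Past 2-fold in every alternative that keeps them were 24 of the 78 and 14 of the 54 genes, the same counts as with the pseudocount of 5 FPKM alone. None of the 78 and 54 changed direction. A pseudocount, a filter or factors of 0.98 and 1.02 cannot reverse a 2-fold ratio, so only quantile normalization could have shown a change. Genes at 0 in XHh and at 0 in XHl numbered 55 and 34, 32 and 20 without overlapping gene models, and the latter 19 with only genes of status OK. Of 44 lists, 20 had a median above that of all genes, and 16 to 22 under the alternatives. Medians near 0, such as glycolysis, lipid synthesis, proteasome and translation factors, changed sign with the scaling, while those of collagens (-0.45 to -0.26) and immediate early genes (0.25 to 0.39) kept theirs in every alternative. Quantile normalization ranked missing XHl estimates as 0, and the cause of these shifts was not tested.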

Other observations

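Some lists not described above were level in Xinghua: excitation-contraction coupling had a median log2 ratio of 0.00 over 18 genes and the proteasome 0.01 over 11 genes. In the first, PVALB was the only gene at least 1.5-fold apart. ATP1B4, a muscle protein related to the beta subunits of the sodium pump, was at 431 FPKM in XHh and 615 FPKM in XHl (0.51), and RYR3, a calcium release channel, at 102 and 95.1 FPKM. ARNTL, the core clock activator, was at 13.4 and 21.8 FPKM (0.67) and was the only one of 8 compared clock genes at least 1.5-fold apart. Its partner CLOCK was at 23.6 and 21.1 FPKM. NFKBIA, the inhibitor of NF-kappaB, was at 33.5 and 49.6 FPKM (0.55), while the interferon and innate signalling list had a median of 0.11 over 17 genes and none of them was 1.5-fold apart.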
